A study of Homo sapiens with 2 samples.

Results

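Mitochondrial ribosomal protein genes, named MRPL for the large subunit and MRPS for the small, were compared between slow-cycling cells (SCC) and non-slow-cycling cells (non-SCC). Both came from SK-ES-1, an established line of Ewing sarcoma, a tumour of bone and soft tissue. A gene was a member when its symbol was MRPL or MRPS followed by digits and at most 1 letter A, B or C, with pseudogenes left out. The rule gave 78 genes of 53737 in the tables, 49 MRPL and 29 MRPS, all protein-coding. The study had 2 libraries of total RNA made with a stranded mRNA kit, 1 of SCC and 1 of non-SCC, both labelled WT in genotype and both of this 1 line, so every difference below is between 2 libraries and has no replicate check. How the slow-cycling cells were set apart is not given in the sources used here.

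Mitochondria hold their own ribosome, the mitoribosome, which translates only the messages of mitochondrial DNA, all of them subunits of the respiratory chain and ATP synthase. Its RNA is made inside the organelle, while its proteins are encoded in the nucleus, made in the cytosol and imported. Some descend from proteins of the bacterial ribosome and others are found only in mitochondria, many of them placed around a shortened ribosomal RNA.

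Levels are given in per-million units, obtained by undoing the log2 scale of the deposited values. The tables do not name the unit or say whether it is per length, so levels of different genes are set side by side only as the tables give them. The log2 ratio of a gene is its log2(per-million unit + 1) in SCC minus that in non-SCC, and the tested genes are the 13444 that reached 1 per-million unit in either library. The read depth was unknown, so no counting interval can be given. The 7 genes taken as Ewing sarcoma markers were NR0B1, NKX2-2, CD99, FLI1, EWSR1, STEAP1 and CCND1. They were present in both libraries, from 34.5 to 1081 per-million units in SCC and from 36.6 to 1066 in non-SCC. The lowest was FLI1 and the highest CCND1 in both. NR0B1 was at 95.3 in SCC and 118 in non-SCC, and NKX2-2 at 99.3 and 111. Of 8 markers of other cell types, 5 were listed at 0 in both libraries, among them the leukocyte gene PTPRC and the endothelial genes PECAM1 and VWF, and the 8 summed to 19.7 in SCC and 14.02 in non-SCC. Most of these sums came from the fibroblast genes DCN, at 15.1 in SCC and 11.7 in non-SCC, and COL1A1, at 3.19 and 1.15. Their part in the results below was not tested.

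Nearly all of these genes had a lower level in SCC, by small amounts. All 78 passed the minimum level in both libraries. The log2 ratio was below 0 in 77 of the 78, against 43.8% of all tested genes, and 21 were at least 1.2-fold lower, against 7.59% of all tested genes. None was at least 1.2-fold higher, against 17.4% of all tested genes, and none differed by 1.5-fold, which 1.41% of tested genes did as lower and 5.38% as higher, or by 2.0-fold, with 0.431% lower and 1.9% higher. The median log2 ratio was -0.19 over the members and 0.03 over all tested genes. The shares over all tested genes depended on level. In 20 bins of level, the share below 0 was 27.8% in bin 1, the lowest, which held no members. It was from 52.2% to 74.9% in bins 16 to 20, which held most of the members. The share of genes of like level at least 1.2-fold higher was not computed. The standard deviation of the log2 ratio across members was 0.11, against 0.33 across all tested genes, 0.120 across complex I genes and 0.099 across cytosolic ribosomal protein genes. Together they summed to 6857 per-million units in SCC and 7893 in non-SCC, so that the SCC sum was 86.9% of the non-SCC sum.

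The promoters of these genes are described here by their letters, and a link between them and the ratios was not tested. Promoter windows of 300 bases, from 250 before to 50 after the start site, were found for 70 of the 78 in the RefSeq table for GRCh38.p14. MRPL2, MRPL10, MRPL13, MRPL15, MRPL21, MRPL23, MRPL35 and MRPS28 were not matched in that promoter table. Each window was searched on both strands for the ETS motif CCGGAAG, the YY1 motif AAGATGGC, the NRF1 motif, which is GCGCA and GCGC with any 1 base between them, and the E-box CACGTG, 4 motifs taken from general knowledge of factors that act on nuclear genes of mitochondria or of growth. ETS and YY1 matches can share the letters AAG, but none of the 8 member windows with both motifs had matches that overlapped. The windows shown are those of MRPS18A and MRPL12, the genes with the lowest ratios among MRPS and MRPL, of MRPS12, which starts back to back with the gene of the mitochondrial seryl-tRNA synthetase, and of MRPL46, which starts back to back with MRPS11. They run 5′ to 3′ in the direction of the gene, with motif matches in capitals, and lie at chr6:43687742-43688041, minus strand, chr17:81703117-81703416, plus strand, chr19:38930694-38930993, plus strand, and chr15:88467339-88467638, minus strand.
MRPS18A: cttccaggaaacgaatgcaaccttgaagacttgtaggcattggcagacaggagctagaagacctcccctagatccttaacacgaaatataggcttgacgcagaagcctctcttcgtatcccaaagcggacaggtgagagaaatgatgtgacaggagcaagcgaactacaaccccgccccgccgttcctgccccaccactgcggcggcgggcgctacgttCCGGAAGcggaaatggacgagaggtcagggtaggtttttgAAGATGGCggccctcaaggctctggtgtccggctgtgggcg
MRPL12: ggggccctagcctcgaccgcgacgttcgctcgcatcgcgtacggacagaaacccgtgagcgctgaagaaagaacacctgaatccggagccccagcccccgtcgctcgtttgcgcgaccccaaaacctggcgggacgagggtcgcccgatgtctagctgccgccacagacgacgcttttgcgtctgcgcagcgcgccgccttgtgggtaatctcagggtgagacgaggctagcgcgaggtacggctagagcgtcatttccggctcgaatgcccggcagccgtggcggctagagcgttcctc
MRPS12: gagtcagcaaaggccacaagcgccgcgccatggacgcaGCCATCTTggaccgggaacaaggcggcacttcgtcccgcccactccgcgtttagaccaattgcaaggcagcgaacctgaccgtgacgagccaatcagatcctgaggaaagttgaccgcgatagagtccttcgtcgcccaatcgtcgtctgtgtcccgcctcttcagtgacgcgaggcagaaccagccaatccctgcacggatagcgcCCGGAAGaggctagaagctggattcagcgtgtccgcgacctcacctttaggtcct
MRPL46: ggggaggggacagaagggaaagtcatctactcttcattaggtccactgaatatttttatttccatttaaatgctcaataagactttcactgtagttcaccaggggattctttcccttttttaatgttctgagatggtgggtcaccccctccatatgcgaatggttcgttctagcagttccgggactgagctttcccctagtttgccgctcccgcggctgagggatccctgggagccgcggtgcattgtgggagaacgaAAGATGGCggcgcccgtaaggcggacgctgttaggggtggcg

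Positions count from 0 at the start site. In the MRPS18A window the ETS match began at -31 and the YY1 match at 9. The MRPS12 window also held both, with the ETS match at -5 and the YY1 match at -212 on the opposite strand. MRPL46 held a YY1 match at 8, and MRPL12 held none of the 4. That says only that these letters are not in this window.

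The ETS motif was in 29 of the 70 member windows, or 41.4%, against 19.9% of the windows of 10363 other tested genes and 10.7% of all 27305 in the table. A YY1 match was in 20 member windows, or 28.6%, against 5.37% of other tested genes and 3.03% of all windows. YY1 matches were in 28.6% of the 42 MRPL and 28.6% of the 28 MRPS windows, and ETS matches in 40.5% of MRPL and 42.9% of MRPS windows. At least 1 of the ETS and YY1 motifs was in 58.6% of member windows and in 24.0% of those of other tested genes. The other tested genes include many of lower level than the members. Motif shares among genes of like level, complex I genes or cytosolic ribosomal protein genes were not computed. Whether the higher shares are particular to the members is therefore not known. The NRF1 motif, in 11.4% of member windows against 12.3%, and the E-box, in 10% against 10.3%, were about as frequent as in other tested genes. Of 21 YY1 matches, 15 began at or after the start site, and the median position of the 21 was 9. The median log2 ratio was -0.18 in members with a YY1 match and -0.18 in those without, and it was -0.21 with and -0.15 without an ETS match. These medians have no test. A match is a description of the letters and not of binding.

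**Figure D1:**
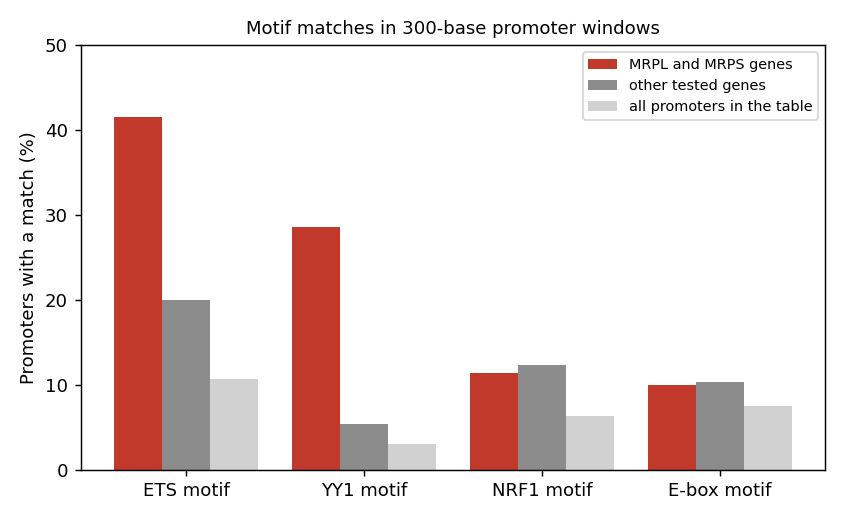
Share of 300-base promoter windows with a match to each motif on either strand (y axis, %), for the 70 MRPL and MRPS genes with a window, for 10363 other tested genes and for all 27305 windows. The ETS bar reaches 41.4% and the YY1 bar 28.6% in the MRPL and MRPS genes, while the NRF1 and E-box bars lie close to those of other tested genes.

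The large and the small subunit had close medians. Among MRPL genes 48 of 49 had a log2 ratio below 0 and 15 were at least 1.2-fold lower, with a median log2 ratio of -0.18 and quartiles of -0.28 and -0.11. Among MRPS genes all 29 were below 0 and 6 were at least 1.2-fold lower, with a median of -0.19 and quartiles of -0.25 and -0.10. The MRPL median minus the MRPS median was 0.01, while the MRPL mean minus the MRPS mean was -0.01, so the median and the mean differ in sign. MRPL genes summed to 4531 per-million units in SCC and 5228 in non-SCC. The MRPS sums were 2326 in SCC and 2665 in non-SCC. The sum of MRPL levels over that of MRPS levels was therefore 1.95 in SCC and 1.96 in non-SCC. No test of this difference between the subunits was possible with 1 library per group.

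**Figure D2:**
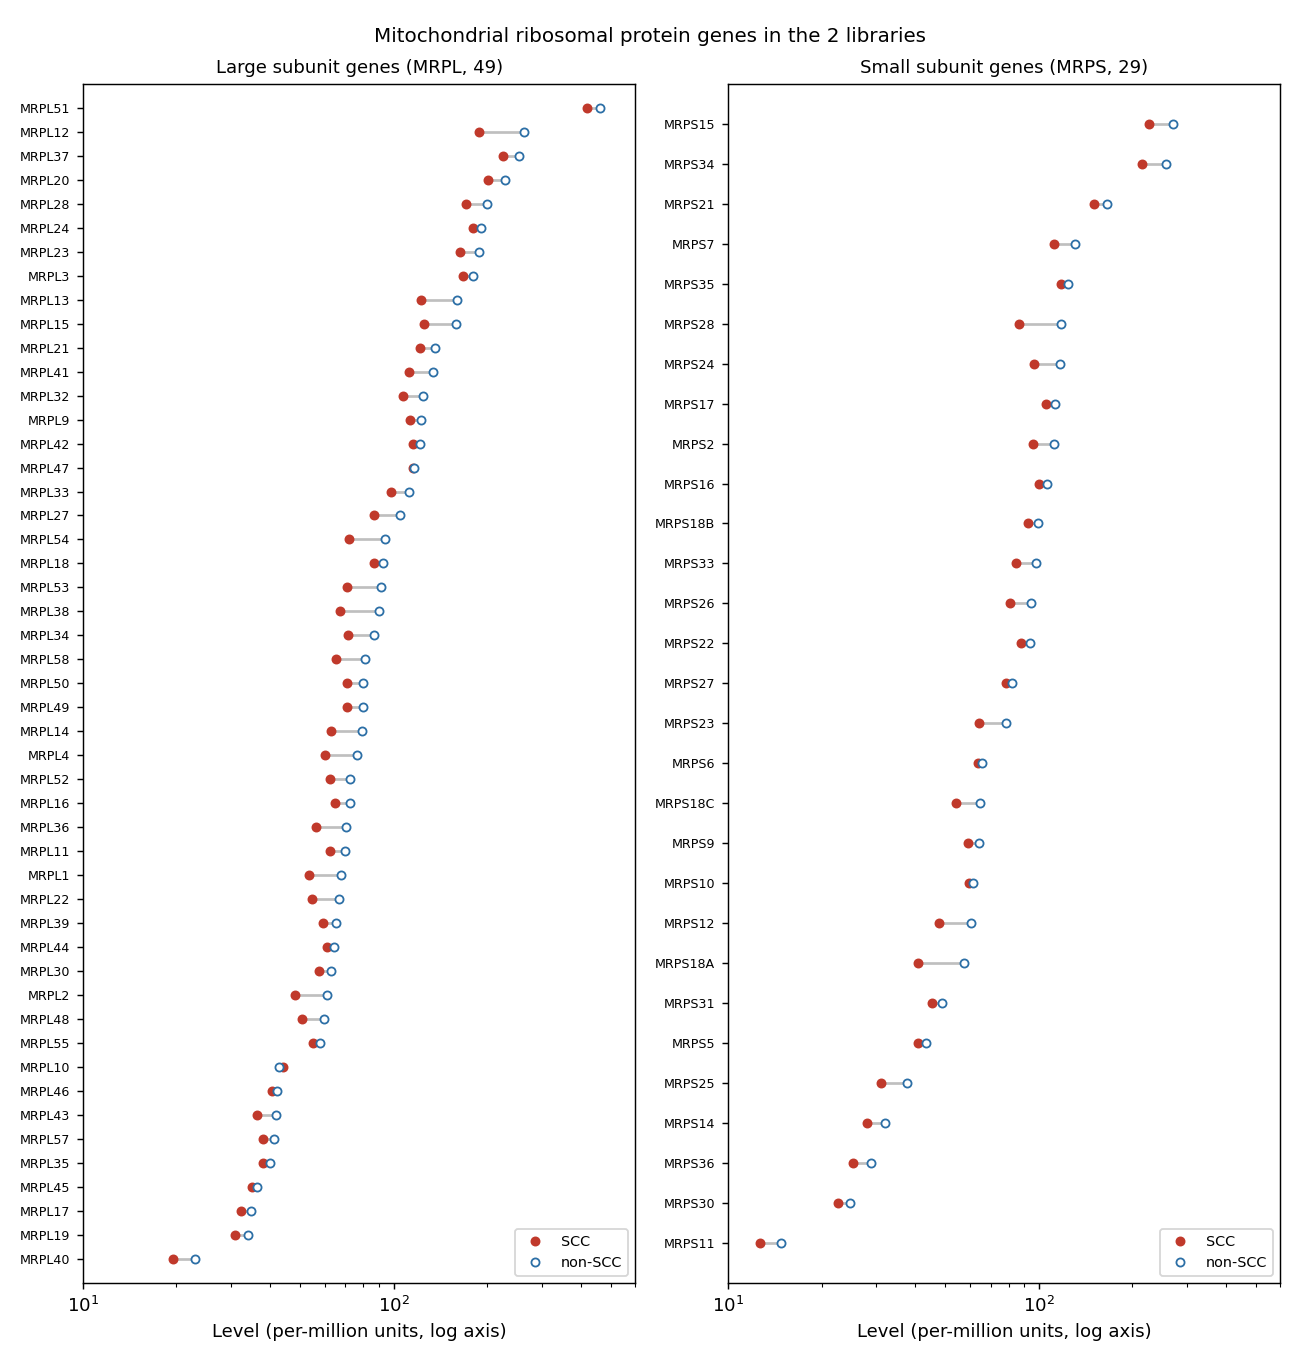
Level of each gene in per-million units (x axis, log scale) in the SCC library (filled red) and the non-SCC library (open blue), for 49 MRPL genes on the left and 29 MRPS genes on the right, ordered by their non-SCC level. The SCC point lies left of the non-SCC point for every gene other than MRPL10, at 44.0 and 42.9.

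The names of the genes do not in every case give the place of the protein. MRPS30 and MRPS18A lie in the large subunit in structures of the mammalian mitoribosome, and MRPS36, now named KGD4, is a part of the 2-oxoglutarate dehydrogenase complex of the citric acid cycle. With MRPS30 and MRPS18A counted in the large subunit and MRPS36 left out, the median log2 ratio was -0.18 over 51 large subunit genes and -0.20 over 26 small subunit genes. By descent the medians were close too. The 44 members with a homologue in the bacterial ribosome, the MRPS18 paralogs not counted, had a median of -0.19, with 43 below 0. The 29 found only in mitochondria had -0.18, with all 29 below 0. The 3 MRPS18 paralogs had a median of -0.25, and MRPL55 and MRPS36 were put in neither class. MRPS36 itself was at 25.2 per-million units in SCC and 28.8 in non-SCC, a log2 ratio of -0.18, and MRPS30 was at 22.6 and 24.7, a log2 ratio of -0.12.

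Levels of these genes spread far more between genes than between libraries. The members spanned 32.9-fold in SCC and 31.0-fold in non-SCC. MRPL51 was the most abundant in both, at 418 per-million units in SCC and 460 in non-SCC. MRPS15, a homologue of a small subunit protein of bacteria, followed at 227 in SCC and 271 in non-SCC. MRPS34, at 215 and 256, and MRPL37, at 225 and 253, are both mitochondria-specific. MRPL12, at 189 in SCC and 263 in non-SCC, had rank 6 in SCC and rank 3 in non-SCC among the members. MRPL20 was at 201 in SCC and 229 in non-SCC, and MRPS21, the third most abundant MRPS gene, at 151 and 166. At the low end, MRPS11 was at 12.7 in SCC and 14.8 in non-SCC, MRPL40 at 19.57 and 22.998, MRPL19 at 30.8 and 34.0 and MRPL17 at 32.2 and 34.7. Above 100 per-million units were 22 members in SCC and 28 in non-SCC. Across the 78 genes the log2 levels of the libraries correlated with a Pearson r of 0.992, a description over genes measured in the same 2 libraries.

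By the log2 ratio with no trend removed, the stalk of the large subunit held the members farthest apart among the MRPL genes. MRPL12 forms the flexible stalk that recruits translation factors, and has also been described as a partner of the mitochondrial RNA polymerase. It was at 189 per-million units in SCC and 263 in non-SCC, a log2 ratio of -0.47, the lowest of the 49. The gene lies on chromosome 17 (81703367 to 81707517, GRCh38). MRPL10, which anchors MRPL12 to the ribosome, was at 44.0 in SCC and 42.9 in non-SCC, a log2 ratio of 0.03 and the only one above 0. It is on the same chromosome (47823272 to 47831541). MRPL11, the protein at the stalk base, was at 62.5 and 69.5, a log2 ratio of -0.15. MRPL53, a mitochondria-specific protein, was at 71.0 and 91.2, with -0.36. With the level trend removed, MRPL47 was the highest of the MRPL genes, at 0.031, and MRPL10 was at 0.029. MRPL12 was then at -0.387 and MRPL38 at -0.384.

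Other MRPL genes with low ratios were MRPL38, a mitochondria-specific protein, at 67.2 per-million units in SCC and 89.7 in non-SCC, with a log2 ratio of -0.41. MRPL54, also mitochondria-specific, was at 72.0 in SCC and 94.1 in non-SCC, and MRPL13 at 123 in SCC and 160 in non-SCC, both with a log2 ratio of -0.38. MRPL38 lies on chromosome 17 (75898644 to 75904884), MRPL54 on chromosome 19 (3762682 to 3767565) and MRPL13 on chromosome 8 (120395437 to 120445150). MRPL2, whose bacterial relative is needed for peptide bond formation, was at 48.2 in SCC and 61.1 in non-SCC, a log2 ratio of -0.33. MRPL4, whose bacterial relative lines the exit tunnel, was at 60.0 in SCC and 76.2 in non-SCC, with -0.34. MRPL3 was at 167 and 180, with -0.11.

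MRPL45, which faces the inner membrane where new chains leave the ribosome, was at 35.01 per-million units in SCC and 36.5 in non-SCC, a log2 ratio of -0.06. MRPL47, the relative of a bacterial protein at the exit, was at 115 in SCC and 116 in non-SCC, with -0.01. MRPL46 was at 40.6 in SCC and 42.004 in non-SCC, with -0.05, and MRPL42 at 116 and 121, with -0.07. MRPL44, which has a ribonuclease III fold, was at 61.0 and 64.1, with -0.07.

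MRPS18A had the lowest log2 ratio of all 78 genes. It was at 40.9 per-million units in SCC and 57.5 in non-SCC, a log2 ratio of -0.48, and lies on chromosome 6 (43671202 to 43687791). Together with MRPS18B and MRPS18C it makes a family of 3 paralogs of a single bacterial protein. MRPS18C, which takes the place of the bacterial protein in the small subunit, was at 54.1 in SCC and 64.6 in non-SCC, with a log2 ratio of -0.25. MRPS18B, at another place of the small subunit, was at 92.4 and 99.2, with -0.10. The paralogs thus differed in the size of their ratio and not in its sign, and without replicates the spread of a single ratio is not known.

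Among small subunit genes MRPS28, a relative of bacterial S1, was at 86.4 per-million units in SCC and 118 in non-SCC, a log2 ratio of -0.45. MRPS12, a protein of the decoding centre, was at 47.8 in SCC and 60.3 in non-SCC, with -0.33, and lies on chromosome 19 (38930944 to 38933168). Next came MRPS23, at 64.3 and 78.3, and MRPS25, at 31.0 and 37.8, both with -0.28. MRPS7, whose relative organises the head of the small subunit in bacteria, was at 112 and 131 with -0.23, MRPS2 at 95.5 and 112 with -0.23, and MRPS14 at 27.9 and 32.1 with -0.19. MRPS34 had a log2 ratio of -0.25.

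The smallest differences of the small subunit were those of MRPS6, at 63.9 per-million units in SCC and 65.6 in non-SCC, a log2 ratio of -0.04, and of MRPS10, at 59.6 and 61.6, with -0.05. MRPS27, an RNA-binding protein of the pentatricopeptide repeat family, was at 78.3 in SCC and 82.0 in non-SCC, with -0.07. MRPS35, at 118 and 124, and MRPS5, a protein of the mRNA entrance in bacteria, at 41.0 and 43.2, both had -0.07. MRPS16 and MRPS22, genes in which inherited defects of mitochondrial translation were described, were at 99.9 and 106 and at 87.5 and 93.6, with log2 ratios of -0.09 and -0.10. All of these were below 0, yet each lay within 1.2-fold, as did 56 of the 77 genes with a ratio below 0.

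Of the mitoribosomal proteins that carry other names, 5 were examined, and 4 had a ratio below 0. CHCHD1 was at 51.7 per-million units in SCC and 71.6 in non-SCC, a log2 ratio of -0.46. GADD45GIP1, of the large subunit and named for binding GADD45 proteins, was at 189 and 213, with -0.17. AURKAIP1 was at 161 and 177, with -0.13, and PTCD3 at 37.0 and 39.9, with -0.10. DAP3, a GTP-binding small subunit protein, was at 186 in SCC and 175 in non-SCC, with 0.09. MRPL57 and MRPL58, which older lists hold under other names, are members, at log2 ratios of -0.12 and -0.31.

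The other genes of mitochondrial gene expression had medians nearer 0. The contrast was smaller with the level trend removed, at a median of -0.11 for assembly genes and -0.04 for translation factors against -0.15 for the members. The median of translation factors was -0.067 with level, length and GC trends removed. Of 29 mitoribosome assembly genes 20 had a ratio below 0, 5 were at least 1.2-fold lower and 1 was higher by that much. Their median was -0.05. The rRNA methyltransferase MRM1 was at 1.55 per-million units in SCC and 4.08 in non-SCC, and the inner membrane protease subunit SPG7 at 35.7 and 26.3. Of 19 translation factors and their helpers 10 were below 0, with a median of -0.01 and none at least 1.2-fold lower. The peptide deformylase PDF was at 6.74 in SCC and 4.43 in non-SCC, and TACO1, an activator of translation of a cytochrome oxidase message, at 38.7 and 45.4. The elongation factor TUFM, chosen after its values were seen, was at 275 and 310.

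Among 20 mitochondrial aminoacyl-tRNA synthetase genes and amidotransferase subunits 14 were below 0 and 1 was at least 1.2-fold lower, with a median of -0.07. The methionyl enzyme gene MARS2 was at 11.3 per-million units in SCC and 15.2 in non-SCC, and AARS2, for alanine, at 25.9 and 21.999. Of 21 genes of mitochondrial transcription and RNA stability 16 were below 0 and 5 at least 1.2-fold lower, with a median of -0.09. With the level trend removed the medians were -0.09 for the synthetase list and -0.10 for the transcription list, against -0.15 for the members. SLIRP, an RNA-binding protein that stabilises mitochondrial messages, was at 159 in SCC and 218 in non-SCC, and FASTKD3 at 9.91 and 13.1.

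Complex I genes of the respiratory chain, whose proteins assemble with products of the mitoribosome, were the list closest to the members. Of 38 genes 35 had a ratio below 0 and 9 were at least 1.2-fold lower, with a median of -0.17. The 38 were picked by symbol and include NDUFA4, now named COXFA4 for cytochrome oxidase and not for complex I, with a log2 ratio of -0.12. NDUFB1 was at 149 per-million units in SCC and 196 in non-SCC, and NDUFS6 at 232 and 292. The 85 tested of 88 cytosolic ribosomal protein genes had a median of -0.07, with 68 below 0 and 1 at least 1.2-fold lower. That gene, RPL26L1, was at 58.4 in SCC and 85.2 in non-SCC, and RPS29, with the next largest ratio, was at 863 and 1028. The median of the members minus that of the cytosolic list was -0.11, and minus that of complex I was -0.02. With the level trend removed the cytosolic median lay above 0, at 0.016. It was below 0, at -0.030, with level, length and GC trends removed, so its sign depended on the trend removed. These differences of medians have no test.

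**Figure D3:**
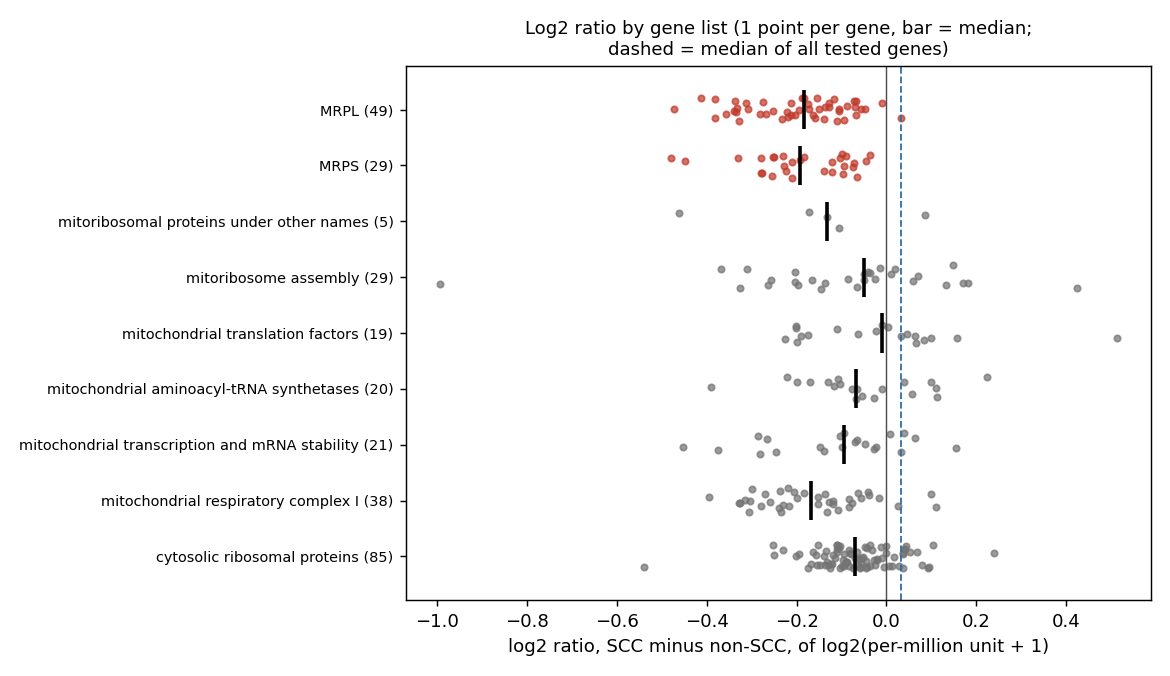
Log2 ratio of SCC minus non-SCC (x axis) for each tested gene of 9 groups, 1 point per gene, with the vertical bar at the group's median and the dashed line at 0.03, the median of all tested genes. The MRPL and MRPS medians are -0.18 and -0.19, the complex I median is -0.17 and the other medians lie from -0.13 to -0.01.

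Ratios in these libraries moved with the level and the length of a gene's mRNA, so the members were also set beside genes like them. Genes of like level, from 20 bins of equal size, had a median log2 ratio of -0.03 in the bins of the typical member. Of the 78 members 55 were among the lowest 25% of their bin, a share of 70.5%. By subunit it was 36 of 49 MRPL and 19 of 29 MRPS genes. Of the 85 cytosolic ribosomal protein genes 7 were among the lowest 25%, and tested genes of their high level had a median of -0.09. That median is of bin 20, the highest, with 673 genes at mean log2 levels from 7.68 to 15.4. The bins include the cytosolic genes themselves, so these genes were set partly beside each other. The other mitochondrial lists also had shares above 25%. It was 55.3% for complex I, with 21 of 38 genes, and 60% for the 5 mitoribosomal proteins under other names. Transcription and RNA stability genes had 47.6%, synthetase genes 45%, assembly genes 41.4% and translation factors 36.8%.

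Members have short messages, with a median mRNA length of 1034 bases against 1818 over tested protein-coding genes. When protein-coding genes were split by length into 5 bins of about equal size, the median log2 ratio was -0.01 in the shortest bin and 0.09 in the longest. In the shortest bin 29 members had a median of -0.22, in the next 31 members had -0.17, in the third 14 had -0.10 and in the fourth 4 had -0.19. Over 457 other genes between the members' quartiles of both level and length, the median was -0.09, with 68.1% below 0 and 9.85% at least 1.2-fold lower. With trends of level, length and GC content removed together, a step added after seeing the data, 75 of 78 members were below 0 with a median of -0.15. Of the 11811 genes fitted, 52.4% were then below 0, with a median of -0.01. Across members the ratio correlated with mRNA GC content at a Spearman rho of -0.39, with length at 0.33 and with level at -0.11 (n = 78 genes, all measured in the same 2 libraries). Over tested protein-coding genes rho was -0.07 for GC content, 0.17 for length and -0.34 for level.

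**Figure D4:**
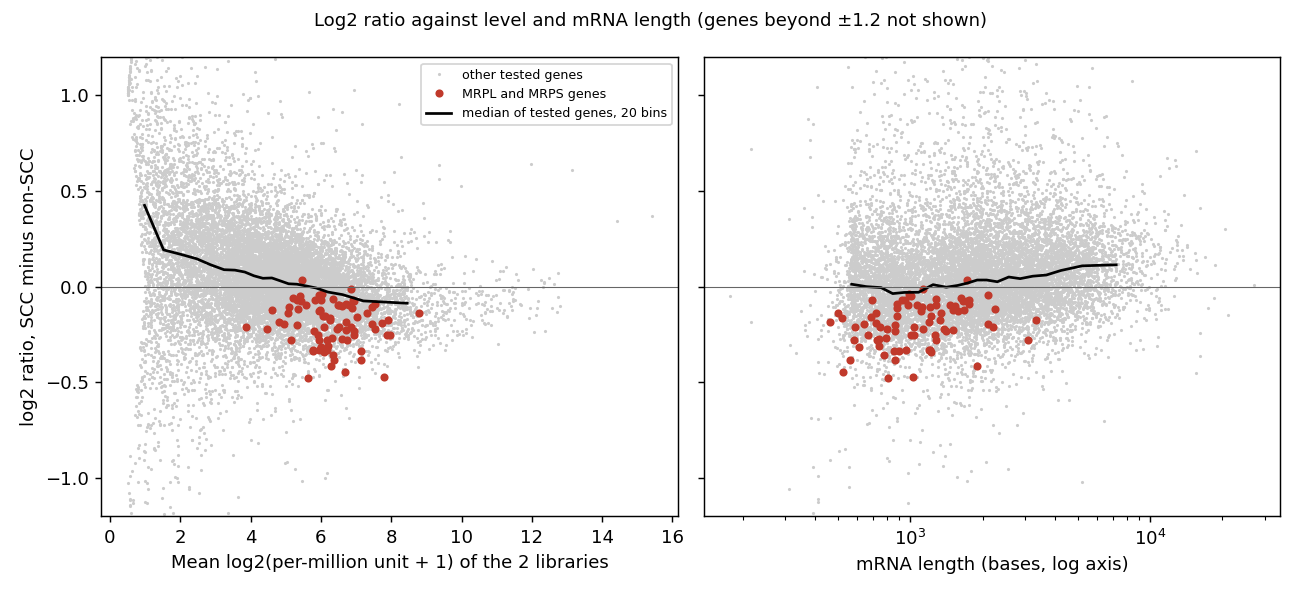
Log2 ratio of SCC minus non-SCC (y axis, genes beyond ±1.2 not drawn) against mean level (left, x axis in log2 units) and against mRNA length in bases (right, log x axis), with MRPL and MRPS genes in red, other tested genes in grey and the median of tested genes in 20 bins as a line. Most red points lie under the line, at a median of -0.19.

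Genes that start back to back with a member had a median log2 ratio of -0.06. Of the members with a start site in the table, 18 began within 1000 bases of another tested gene that runs the other way. MRPL46 and MRPS11 are such a pair, 320 bases apart on chromosome 15, with log2 ratios of -0.05 and -0.21. The other 16 partners are not members. Of these, 10 had a ratio below 0, against 43.8% of all tested genes, a share that depended on level. The partners were not set beside genes of like level. MRPS12 had -0.33 and its partner SARS2, which charges the mitochondrial serine tRNA and starts 181 bases away, was at 30.1 per-million units in SCC and 32.4 in non-SCC, with -0.10. EME1, a DNA repair endonuclease subunit 45 bases from MRPL27, had -0.01 where MRPL27 had -0.28. MRPL49 had -0.16, and FAU, a cytosolic ribosomal protein gene 49 bases away, had -0.14. The 3 pairs other than MRPL46 and MRPS11 were picked after their values were seen.

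Some levels are uncertain because reads can belong to more than 1 gene. Another tested gene overlapped 20 of the members, and over the other 58 the median was -0.17. MRPS24, at 96.3 per-million units in SCC and 117 in non-SCC, lies within the read-through model URGCP-MRPS24, itself at 73.6 and 90.6. Of 105 rows for pseudogenes of the family 3 were above 0 in either library, MRPS31P5 at 9.56 in SCC and 9.24 in non-SCC, MRPL45P2 at 4.05 and 2.98, and MRPL42P5 at 0.326 and listed at 0. All 37 genes of mitochondrial DNA, its ribosomal RNAs and its 13 protein genes included, were listed at 0 in both libraries, so the RNA of the mitoribosome and the messages it translates could not be compared.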

How the data were processed

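RNA of 1 SCC and 1 non-SCC library of SK-ES-1 was analysed. The values came as deposited, called normalized per the file headers, and were taken as log2 values of a per-million unit plus 1, from the numbers themselves: none was below 0, and the back-transformed values summed to 983638 in SCC and 984120 in non-SCC. Per the submitters' processing notes the genome build was hg38, while which aligner, quantifier and normalization made the values is not given in the sources used here. The column headers say LRC and non-LRC, and each table was assigned through the sample it was deposited for. Lines of 1 Entrez ID were summed, which gave 53737 genes of 53826 lines. Gene class and coordinates were from RefSeq (GRCh38.p14), and mRNA length and GC from GENCODE 29. Python 3.11.15 and pandas 2.3.3 were used. No p-value was computed, since there was 1 library per group. The scripts were tested on simulated data.

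The members and lists were chosen with earlier results of these data known. Genes named were the 5 lowest and 5 highest ratios of each subunit, the 3 most and 3 least abundant, a set fixed for its roles, and 2 per other list. Alternatives were no minimum level or 5, a pseudocount of 0.1 in place of 1, 3 rescalings, removal of level trends, and other subunit assignments.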

Additional observations from a re-analysis of the deposited data

How the results depend on the processing

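No paired analysis was possible because each group had 1 library. Over the other minimum levels, pseudocount, scalings and trend removals (the removal of level, length and GC trends was chosen after seeing the data), the number of members below 0 stayed between 74 and 77, those at least 1.2-fold lower between 17 and 26, and the median between -0.22 and -0.15. The shares of all genes at the same settings were from 42.7% to 52.4% below 0 and from 6.40% to 11.02% at least 1.2-fold lower. None was at least 1.2-fold higher under any of these. With level, length and GC trends removed, the MRPL median was -0.12, the summed level ratio was -0.15 in place of -0.20 and the median of translation factors was -0.067. With the level trend removed, the median of cytosolic ribosomal proteins was 0.016 and that of assembly genes -0.11. The cytosolic median was -0.030 with level, length and GC trends removed. The causes were not tested. The MRPL minus MRPS median stayed between -0.01 and 0.05, and was below 0 only with overlapped members left out. MRPL42, MRPL47 and MRPS35 were above 0 with the level trend removed, MRPL47 and MRPS6 with all trends removed. Without replicates or read depth, the error of a single ratio is unknown. A movement of up to 0.05 on the log2 scale was taken as small.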

Other observations

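The nuclear genes MTRNR2L1 to MTRNR2L13 are copies of the large ribosomal RNA gene of mitochondrial DNA, RNR2, the RNA core of the large mitoribosomal subunit. How alike each copy is to RNR2 was not examined. RNR2 was listed at 0 in both libraries, while these 13 copies summed to 18833 per-million units in SCC and 12342 in non-SCC, a log2 ratio of 0.61. MTRNR2L2 was at 11096 in SCC and 7275 in non-SCC, and MTRNR2L8 at 5023 and 3223. All 7 tested copies had a ratio above 0, and 5 of the 13 were listed at 0 in both libraries. Reads of the mitochondrial RNA and of its nuclear copies cannot be told apart in these values, and the copies were looked at after their values were seen.

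The 3 members on chromosome 8 were all among the lower ones, which was noticed after the values were seen. MRPS28 had a log2 ratio of -0.45, MRPL13 -0.38 and MRPL15 -0.34, a median of -0.38, while 412 tested protein-coding genes of that chromosome had a median of 0.02, against 0.03 over all tested protein-coding genes.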
